A study of Homo sapiens with 9 samples.

Results

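The comparison described here sets H9 cells kept in primitive streak differentiation medium (PS medium) with doxycycline against untreated cells of the same line. It uses 6 of the 9 arrays of the series, the 3 with titles ending in "+PS Medium_+Dox" and the 3 with titles ending in "Untreated", selected by title alone. H9 is a long-established line of human embryonic stem cells, and every array came from its derivative H9-TCF7L1, which carries a TCF7L1 transgene. Untreated cells were in mTeSR1, a medium that maintains pluripotency. The doxycycline group had 48 h of PS medium together with 48 h of doxycycline at 1 ug/ml, and 3 further arrays had 48 h of PS medium without doxycycline. The study set out to find putative targets of TCF7L1 by over-expressing it. The labels do not give the composition of PS medium, the promoter of the transgene or the number of clones. No group had doxycycline without PS medium or without the transgene, so doxycycline and the transgene product cannot be told apart. Against untreated cells the medium and the induction changed together.

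Pluripotent human cells can leave that state in several directions within a few days. High BMP signalling favours amnion, the thin epithelium that encloses the embryo, and surface ectoderm, the sheet that forms epidermis, and these tissues share AP-2, GATA, DLX and MSX transcription factors. Wnt and Nodal signalling favour the primitive streak, whose cells lose epithelial junctions and form mesoderm and endoderm. TCF7L1 is a DNA-binding protein of the TCF/LEF family that mostly holds Wnt targets in a repressed state until beta-catenin accumulates. The question followed here is which of these gene programmes cells with induced TCF7L1 approached, and how much of the pluripotency programme they kept.

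Each array gave a deposited intensity for every probe set, and 18417 genes were tested. Array medians of the deposited intensity ran from 200.4 to 216.5. Pearson correlations over genes ran from 0.995 to 0.997 within untreated arrays, from 0.989 to 0.994 within doxycycline arrays and from 0.945 to 0.954 between these groups. TCF7L1 itself read 3718, 3878 and 3572 in untreated cells and 13100.2, 12433 and 2699 in the doxycycline group. The third doxycycline array thus lay below every untreated array for TCF7L1, while the other 2 lay far above. The 3 arrays in PS medium without doxycycline read 1275, 1542 and 1611 for TCF7L1, below every doxycycline array. TCF7L1 was 5.24-fold higher with doxycycline than in PS medium (limma adjusted p = 0.00464). Low TCF7L1 on the third array thus means low beside untreated cells and the other 2 doxycycline arrays. The difference of TCF7L1 from untreated cells was 1.04 ± 0.47 on the log2 scale (SE, limma adjusted p = 0.124), and 1.78 without the third doxycycline array (limma adjusted p = 4.62e-07). The untreated arrays carried the defining transcripts of human embryonic stem cells, with SOX2 at 3898, 4364 and 4561 and LIN28A at 7865, 8322 and 8108. POU5F1 and NANOG are on probe sets with several gene symbols and are not analysed here. Of 12 fibroblast genes 3 were higher and 3 lower with doxycycline, and of 14 endothelial and blood genes 1 was higher and 1 lower (2 with replicate number as a block). Over all genes tested 15.3% were higher and 14.9% lower. The fibroblast genes DCN and LUM stayed between 18.9 and 54.9 on all 9 arrays. Against untreated cells MFAP5 was 3.24-fold and ACTA2 2.34-fold higher, and THY1 was 5.24-fold and COL6A3 1.59-fold lower. The mean log2 difference from the untreated mean over the fibroblast list was -0.12, -0.072 and -0.031 on the doxycycline arrays, and over the endothelial and blood list -0.16, -0.072 and -0.089.

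Differences below are on the scale log2(intensity + 16) after quantile normalization, with n = 3 arrays per group. A gene is called when its limma p-value, adjusted by Benjamini-Hochberg over all 18417 genes, is under 0.05. "Rose" and "fell" are used only for called genes. Fold changes come from that scale and understate the change of dim genes. With doxycycline, 2827 genes were higher than in untreated cells (15.3%) and 2747 were lower (14.9%), with a median of 0 over all genes. Against PS medium alone, 1641 genes were higher (8.91%) and 1555 lower (8.44%), with a median of 0.002. These 4 percentages are the background for the list counts that follow. The comparisons share the doxycycline arrays, and their values are given side by side only. RNA was measured in bulk, so fewer cells of a type and less RNA per cell cannot be told apart.

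The largest rises with doxycycline against untreated cells were in HPGD, which degrades prostaglandins (94.3-fold), and in genes of several of the fate lists. These were the endoderm and heart factor GATA6 (90.3-fold), the AP-2 factor TFAP2A (87.1-fold), the Nodal and BMP antagonist CER1 (81.9-fold), the T-box factor TBX3 (79.2-fold), GATA3 (77.8-fold), HAND1 (74.4-fold) and the BMP antagonist NOG (67.8-fold). The falls of largest size were in SORBS2, an actin-linked scaffold (41.5-fold lower), LRAT, which esterifies retinol (25.3-fold), NPTX1, a neuronal pentraxin (16.2-fold), CYP2B6 (15.1-fold) and its near-identical pseudogene CYP2B7P (13.1-fold), DUSP6, an ERK phosphatase (13.7-fold), TM4SF18, a tetraspanin-like membrane protein (12.4-fold), and EDNRB, an endothelin receptor (10.4-fold). Signals of CYP2B6 and CYP2B7P may not be separated by their probe sets. The fold of SORBS2 was smaller when all its probe sets were averaged (log2 -2.73 in place of -5.38).

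Among the 19 lists, the share of measured members higher than in untreated cells was largest for the BMP response (13 of 13), the genes shared by amnion and surface ectoderm (15 of 18), mesenchymal genes (15 of 20) and amnion genes (8 of 12). Wnt response genes (9 of 14) and primitive streak genes (12 of 22) followed. The share that was lower was largest for pluripotency genes (21 of 30). Paraxial mesoderm, lateral mesoderm, neural border, neuroectoderm, germ cell, trophoblast, fibroblast and endothelial lists had between 1 and 4 members higher and a median between -0.15 and 0.13. The lists were chosen with earlier results of these data known, and counts are descriptions without a test of the list.

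**Figure D1:**
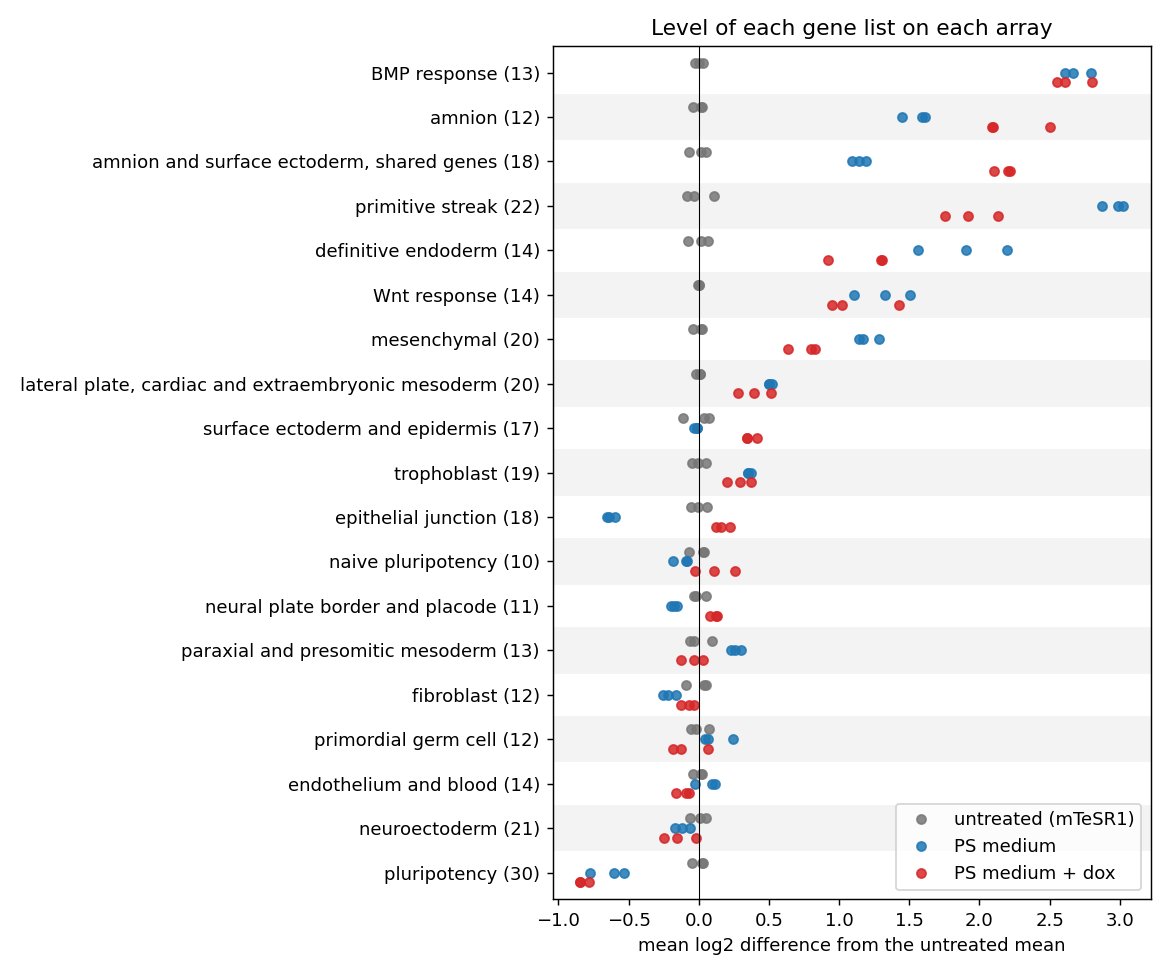
Each point is 1 array: the mean, over the measured members of a list (number in brackets), of the log2 level minus the untreated mean of that gene. Grey points are untreated arrays, blue points PS medium and red points PS medium with doxycycline. On the doxycycline arrays the shared amnion and surface ectoderm list sat at 2.10, 2.20 and 2.22, above PS medium alone, and the primitive streak list at 1.92, 2.13 and 1.76, below PS medium alone.

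The genes that amnion and surface ectoderm share were higher with doxycycline than in untreated cells in 15 of 18 cases and lower in 0 (also 0 at an unadjusted limma p under 0.05), with a median of 1.07. Against PS medium 13 were higher and 0 lower (0 unadjusted), with a median of 0.83. TFAP2A, an AP-2 transcription factor of both tissues, read 191, 207 and 207 on the untreated arrays, 9636, 9199 and 6483 on the PS arrays and 16603, 18260.1 and 16479 on the doxycycline arrays. Every doxycycline array was above every PS array, and every PS array above every untreated array. The rise was 6.45 ± 0.15 on the log2 scale against untreated cells (SE, limma adjusted p = 7.10e-10) and 1.17 ± 0.15 against PS medium (limma adjusted p = 0.000315). GATA3, a zinc finger factor of amnion, trophoblast and ectoderm, read 56.9, 51.7 and 39.6 on the untreated arrays, 2074, 2271 and 2690.4 on the PS arrays and 4831, 4709 and 5175 on the doxycycline arrays. MSX2, a homeobox factor induced by BMP, read 53.6, 50.5 and 78.8 on the untreated arrays, 2246, 2322 and 2909.8 on the PS arrays and 4370.4, 4687 and 4553 on the doxycycline arrays. GATA2 rose 8.79-fold against untreated cells and 2.05-fold against PS medium, and TFAP2C, which also marks germ cells, 8.36-fold and 2.76-fold. For all 5 of these factors the 3 groups did not overlap on the deposited scale.

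The DLX genes, homeobox factors of ectoderm and neural border, were higher on each doxycycline array than on any of the other arrays. DLX5 read 46.4, 53.6 and 50.5 on the untreated arrays, 148, 184 and 136 on the PS arrays and 3657, 3745 and 2998 on the doxycycline arrays, a rise of 53.8-fold against untreated cells (limma adjusted p = 7.10e-10) and 20.3-fold against PS medium (limma adjusted p = 2.09e-08). DLX3, a regulator of epidermal and placental differentiation, read 60.9, 70.6 and 61.6 on the untreated arrays, 68.3, 69.2 and 76.5 on the PS arrays and 525, 626 and 381 on the doxycycline arrays. Its doxycycline arrays were above the other 6, whereas untreated and PS arrays overlapped. DLX6, the neighbour of DLX5 in the genome, rose 1.83-fold against untreated cells. Smaller rises against untreated cells were found for the epithelial repressors of mesenchymal genes OVOL1 (1.45-fold) and OVOL2 (1.47-fold), and for GRHL2, a grainyhead factor that maintains epithelia (1.95-fold). GRHL2 was also 2.92-fold higher than in PS medium. MSX1 rose 1.23-fold, a call lost without untreated replicate 2 or doxycycline replicate 1 (limma adjusted p = 0.0833 and 0.0707).

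Keratins were less uniform. KRT8 and KRT18, the partner keratins of simple epithelia, rose 2.28-fold and 1.30-fold, and KRT19 rose 2.25-fold, against untreated cells. KRT8 and KRT18 have many processed pseudogenes, and probe sets may not separate them. KRT7, a keratin of amnion, trophoblast and other simple epithelia, read 328, 301 and 414 on the untreated arrays, 91.8, 87.5 and 91.9 on the PS arrays and 252, 190.0 and 699 on the doxycycline arrays. The untreated and doxycycline groups overlapped, with a difference of -0.068 ± 0.34 (limma adjusted p = 0.911). Without the third doxycycline array, the one with low TCF7L1, KRT7 was lower than in untreated cells (-0.60, limma adjusted p = 0.00961). Against PS medium KRT7 was 3.21-fold higher. TFAP2B and WNT6, a Wnt ligand of surface ectoderm and amnion, were not called, at 0.10 ± 0.12 (95% interval -0.17 to 0.36) and -0.17 ± 0.080 (-0.35 to 0.004).

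**Figure D2:**
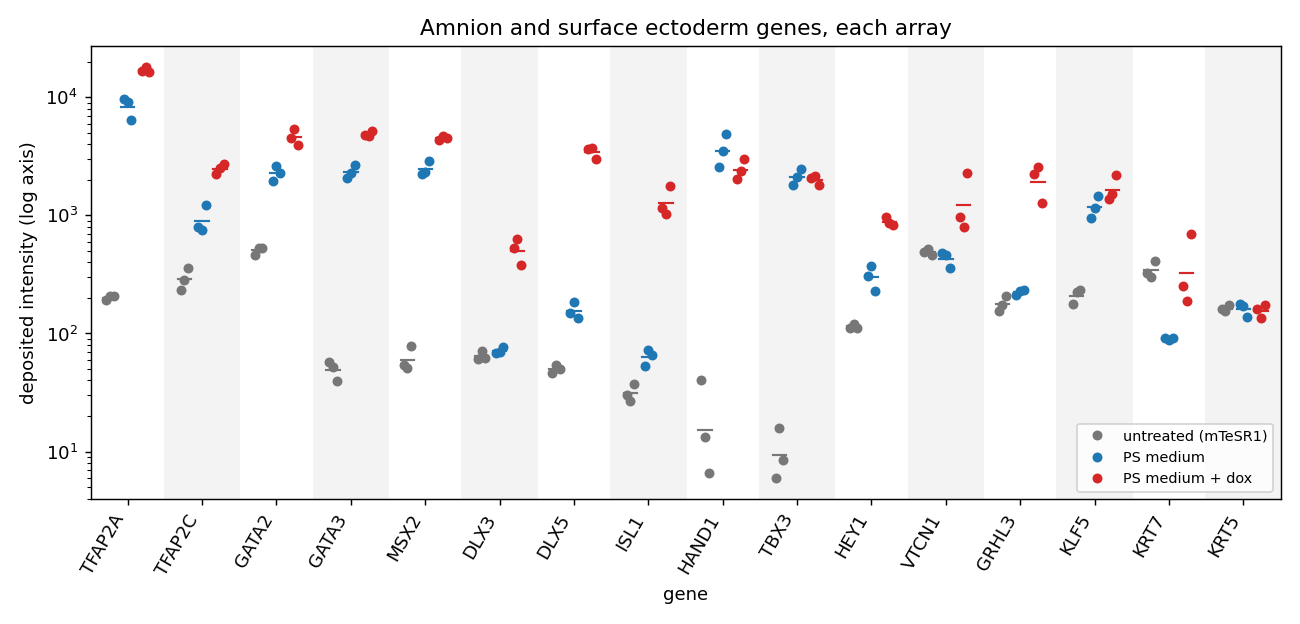
Deposited intensity (log axis) of 16 genes of the amnion and surface ectoderm lists on each array; short lines are geometric means of 3 arrays. DLX3, DLX5, ISL1 and GRHL3 lay apart from the other groups with doxycycline, HAND1 and TBX3 rose in PS medium with or without doxycycline, and KRT5 overlapped in all groups.

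Of 12 measured genes weighted to amnion, 8 were higher than in untreated cells and 0 lower (0 unadjusted), with a median of 1.18. Against PS medium 5 were higher and 0 lower (0 unadjusted), with a median of 0.10. ISL1, a LIM homeobox factor of amnion and of heart progenitors, read 30.2, 26.8 and 37.1 on the untreated arrays, 52.7, 72.8 and 66.1 on the PS arrays and 1149, 1027 and 1780.1 on the doxycycline arrays. It rose 27.7-fold against untreated cells (log2 4.79 ± 0.19, SE, limma adjusted p = 4.21e-08) and 16.1-fold against PS medium (limma adjusted p = 5.14e-07). HEY1, a Notch and BMP effector, read 111, 121 and 112 on the untreated arrays, 309.6, 373 and 229.7 on the PS arrays and 971, 858 and 832 on the doxycycline arrays, with no overlap between groups. VTCN1, an immune checkpoint protein of later amnion, read 490.3, 517 and 466 on the untreated arrays, 478, 464 and 359 on the PS arrays and 971, 802 and 2298 on the doxycycline arrays. Its doxycycline arrays were the highest 3 of the 9, and the array with low TCF7L1 was more than 2-fold above the others. CTSV, a cathepsin, rose 1.75-fold against untreated cells and 1.92-fold against PS medium.

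Other amnion genes rose with PS medium whether or not doxycycline was added. TBX3 read 5.94, 15.7 and 8.51 on the untreated arrays, 1812, 2105 and 2451 on the PS arrays and 2094, 2161 and 1795 on the doxycycline arrays. HAND1, a basic helix-loop-helix factor of amnion and of extraembryonic and heart mesoderm, read 40.6, 13.2 and 6.55 on the untreated arrays, 2550.4, 3506 and 4912 on the PS arrays and 2029, 2363 and 3014 on the doxycycline arrays. Between doxycycline and PS medium TBX3 differed by -0.052 ± 0.15 (95% interval -0.39 to 0.29) and HAND1 by -0.51 ± 0.31 (-1.21 to 0.18), and neither was called. Both genes were close to the bottom of the scale in untreated cells, so their folds depend on the log offset. The same held by more than 1.5-fold for ISL1, GATA3, MSX2, DLX5, GATA4, GATA6, CER1, WNT8A, LHX1, DKK1, LGR5, LIX1, PAX6, PPARG, PRDM1, FEZF1, HPGD, POSTN and ZEB2 and for the falls of SORBS2, LRAT, CYP2B6, CYP2B7P and TM4SF18. With an offset of 64 the log2 rise was 4.82 for TBX3 and 4.93 for HAND1, and with an offset of 1 it was 7.64 and 7.24. BMP4, the ligand that drives amnion formation, rose 9.35-fold against untreated cells and read 1200.3, 1594 and 3436 with doxycycline against 1343, 1867 and 2299.6 in PS medium. CDH10 rose 2.12-fold against untreated cells, and without the third doxycycline array it was lower than in PS medium (-0.55, limma adjusted p = 0.00798). IGFBP3, ITGB6, CDX2 and MUC16 were not called, with differences between -0.12 and 0.17. CDX2, a caudal homeobox factor of trophoblast and posterior streak, read 1182, 1219.5 and 1232 with doxycycline against 1128, 1103 and 1214 in untreated cells.

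Genes weighted to surface ectoderm and epidermis were higher in 6 of 17 cases and lower in 3, with a median of 0.10. GRHL3, a grainyhead factor of surface ectoderm and the epidermal barrier, read 154, 174 and 206 on the untreated arrays, 213, 227 and 236 on the PS arrays and 2239.8, 2548 and 1275 on the doxycycline arrays. The gain was 10.4-fold over untreated cells (limma adjusted p = 9.93e-07) and 8.15-fold over PS medium (limma adjusted p = 6.96e-06). KLF5 rose 7.53-fold, ELF3, an epithelial ETS factor, 2.29-fold, SFN, the epithelial 14-3-3 protein, 1.69-fold, and PERP, a desmosomal p53 target, 1.69-fold, with KRT14 at 1.31-fold, against untreated cells. Against PS medium, in this list GRHL3, FREM2 and ITGB4 were higher and 0 were lower (1 unadjusted). KLF5 passed there without PS replicate 3 (limma adjusted p = 0.0418) and with the replicate number as a block (limma adjusted p = 0.00339 in place of 0.103), and so did ELF3 (0.0336 and 0.0340 in place of 0.158). The count of higher genes was 5 without that array and 6 with the block, where CDH3 was added (0.0332).

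KRT14, the basal keratin of epidermis, was the only stratified keratin called. KRT5, its partner, read 160.2, 136 and 174 with doxycycline against 160.0, 154 and 174 in untreated cells, a difference of -0.005 ± 0.10 (95% interval -0.23 to 0.22). Differences of KRT15, LAMB3, DSG3 and PKP1, components of basal keratinocytes, hemidesmosomes and desmosomes, lay between -0.001 and 0.10, and none was called. DSP, desmoplakin, differed by 0.20 (95% interval -0.033 to 0.43) and was not called. BNC1, a basal keratinocyte zinc finger protein, was 2.86-fold lower than in untreated cells, DSC3, a desmosomal cadherin, 2.75-fold lower and CDH3, P-cadherin, 1.44-fold lower. TP63, KRT17, LAMA3 and COL17A1 are not analysed here. Of 11 neural border and placode genes 1 was higher, EYA2, a placodal co-activator (2.70-fold), and 1 was lower, SIX4 (log2 -0.26). The SIX4 call was lost with median centring (limma adjusted p = 0.0701) and without any 1 array of these groups except doxycycline replicate 1 (limma adjusted p from 0.0520 to 0.0621). With the replicate block EYA1 was also higher and SOX10 also lower (limma adjusted p = 0.0471 and 0.0318). Of the same 11 genes 4 were higher and 0 lower (1 unadjusted) than in PS medium, with a median of 0.10. SIX4 was among those higher (log2 0.23, limma adjusted p = 0.0499), a call lost with median centring (0.0816). With median centring 2 of the list were higher than in PS medium.

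Trophoblast genes, which share GATA3 and TFAP2C with amnion, gave 4 rises and 2 falls, PLAC1 (1.23-fold lower) and LRP2 (1.41-fold lower), among 19, with a median of 0.13. PPARG, a nuclear receptor of trophoblast and fat, rose 4.97-fold, ENPEP, an aminopeptidase, 2.44-fold, VGLL1, a TEAD co-factor, 2.32-fold and PLAC8 1.41-fold. VGLL1 read 108, 99.5 and 342 with doxycycline, so that the array with low TCF7L1 was again the highest. Its call was lost without untreated replicate 2 (limma adjusted p = 0.0525), and so was that of PLAC1 there and without untreated replicate 3, PS replicate 2 or any doxycycline array (0.0533 to 0.148). Differences of the placental factors and hormones ELF5, GCM1, CGA, CYP19A1, HSD3B1 and INSL4 lay between -0.017 and 0.32, and none was called. ELF5, which maintains trophoblast stem cells, read 128, 118 and 122 with doxycycline against 108, 109 and 119 in untreated cells. Of 12 germ cell genes 2 rose, PRDM1 (8.61-fold) and SOX15 (1.48-fold), and 2 fell, DAZL (4.72-fold lower) and TCL1B (5.61-fold lower). PRDM1, a transcriptional repressor needed for germ cell formation, read 362, 415 and 661 with doxycycline and 1433, 1384 and 2072 in PS medium. NANOS3, an RNA-binding protein of germ cells, differed by 0.14 ± 0.10 from untreated cells and was not called. The SOX15 call was lost without untreated replicate 1 or 2 or doxycycline replicate 3 (limma adjusted p from 0.0666 to 0.0905).

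BMP response genes, which include direct SMAD targets and the ligands and antagonists of the pathway, were higher than in untreated cells in 13 of 13 cases, with a median of 2.65. ID1, an inhibitor of helix-loop-helix factors and a direct SMAD target, read 858, 889 and 819.7 on the untreated arrays, 5864, 5659.9 and 5609 on the PS arrays and 6708, 7036 and 6175 on the doxycycline arrays. ID2 rose 4.57-fold, ID3 1.99-fold and ID4 17.1-fold against untreated cells. ID4 read 5616, 5833 and 5774 with doxycycline and 2351, 1871 and 1818 in PS medium, a further rise of 2.90-fold. Among ligands, BMP2 read 803, 1438 and 1306 with doxycycline and 3471, 4445 and 5924 in PS medium, and BMP7 rose 2.07-fold against untreated cells. Among inhibitors, the pseudoreceptor BAMBI rose 9.69-fold, SMAD6 6.29-fold and SMAD7 2.64-fold against untreated cells. NOG, which binds BMPs outside the cell, read 117, 85.3 and 124 on the untreated arrays, 953, 1086 and 2022 on the PS arrays and 8494, 9930.1 and 6386 on the doxycycline arrays, with no overlap between the 3 groups. BMPER, a BMP-binding secreted protein, rose by 3.46 on the log2 scale against untreated cells and was 3.35-fold lower than in PS medium. Against PS medium 6 of the list were higher and 4 lower. Without doxycycline replicate 1 the first of these counts was 3.

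Primitive streak genes were higher than in untreated cells in 12 of 22 cases and lower in 0 (0 unadjusted), with a median of 0.94. Against PS medium 17 of the same 22 were lower and 0 higher (0 unadjusted), with a median of -0.92. Without PS replicate 2 or doxycycline replicate 3 the count of lower genes was 11. EOMES, the T-box factor that starts endoderm and heart programmes, read 199.5, 206 and 229 on the untreated arrays, 50981, 55273 and 57102 on the PS arrays and 11479, 15554 and 9529 on the doxycycline arrays. MIXL1, a homeobox factor of the streak, read 101, 87.9 and 91.3 on the untreated arrays, 8223, 8141 and 8309 on the PS arrays and 2761, 3162 and 2097 on the doxycycline arrays. TBXT, brachyury, read 155, 174 and 181 on the untreated arrays, 724, 571 and 443 on the PS arrays and 396, 391 and 222 on the doxycycline arrays. In each of these the doxycycline arrays lay between the other groups, without overlap. TBXT was 1.86-fold higher than in untreated cells (log2 0.90 ± 0.22, SE, limma adjusted p = 0.0104), EOMES 53.5-fold and MIXL1 24.9-fold.

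APLNR, the apelin receptor of early mesoderm, rose 46.2-fold, WNT8A 17.7-fold, WNT3 6.54-fold, LHX1, an organizer factor, 9.11-fold and FGF17 5.97-fold against untreated cells. GSC, the homeobox factor of the organizer, read 308, 317 and 363 on the untreated arrays, 8117, 8771 and 10944 on the PS arrays and 402, 343 and 408 on the doxycycline arrays. Its doxycycline and untreated arrays overlapped, with a difference of 0.22 ± 0.12 (95% interval -0.045 to 0.48). DKK4, a Wnt antagonist induced in the streak, read 70.4, 77.2 and 55.9 with doxycycline against 70.4, 66.9 and 69.7 in untreated cells and 229, 231 and 112 in PS medium. NODAL, the ligand that patterns the streak, rose 4.97-fold, and with doxycycline it differed from PS medium by 0.18 ± 0.33 (95% interval -0.54 to 0.90), which was not called. EVX1, HOXB1 and CDX1, factors of posterior streak, were not called against untreated cells, with differences between -0.026 and 0.24.

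**Figure D3:**
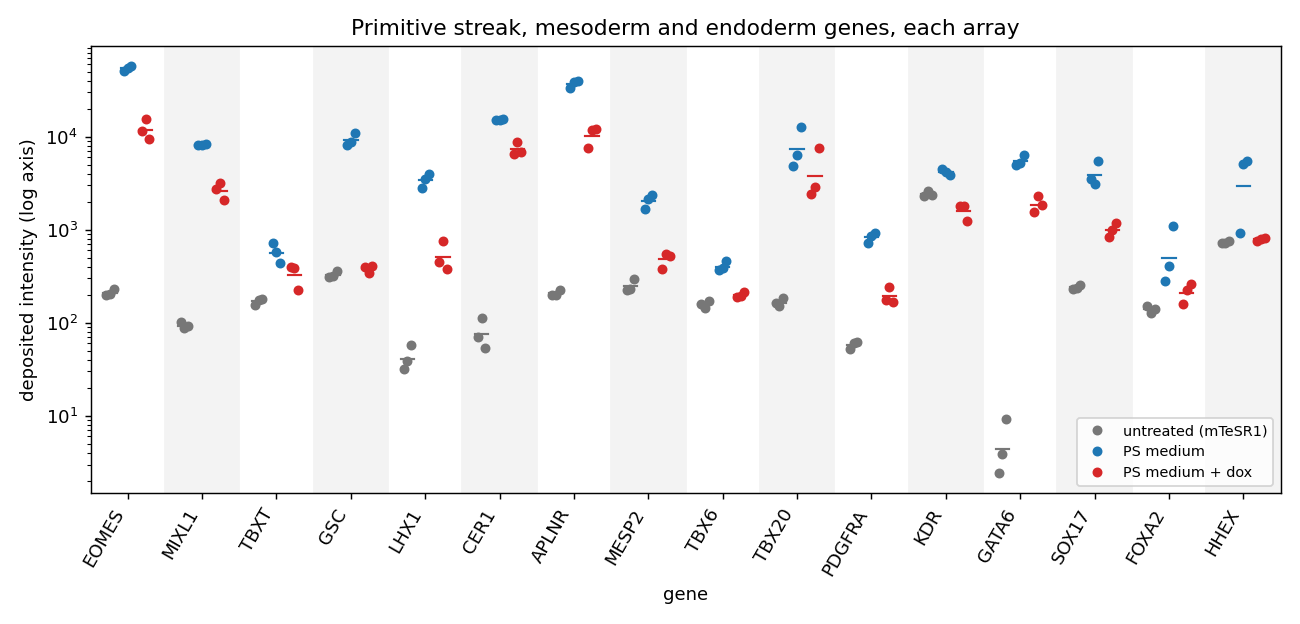
Deposited intensity (log axis) of 16 primitive streak, mesoderm and endoderm genes on each array; short lines are geometric means of 3 arrays. For EOMES, MIXL1, CER1, APLNR, GATA6 and SOX17 the doxycycline arrays lay between untreated cells and PS medium, and for GSC and HHEX they lay close to untreated cells.

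Wnt response genes were higher than in untreated cells in 9 of 14 cases and lower in 3, with a median of 1.08. NOTUM, a secreted enzyme that inactivates Wnt ligands, read 87.3, 73.9 and 82.8 on the untreated arrays, 1489, 1803 and 1454 on the PS arrays and 1756, 2235 and 1016 on the doxycycline arrays, so PS medium and doxycycline overlapped. DKK1 rose 11.8-fold, LGR5, an R-spondin receptor, 5.42-fold, NKD1 3.48-fold and LEF1 2.86-fold against untreated cells. Without doxycycline replicate 1 the log2 rise of LGR5 was 3.13 in place of 2.44. AXIN2, a feedback inhibitor that is commonly read as a measure of Wnt activity, read 398, 460.5 and 376 with doxycycline against 338, 409 and 388 in untreated cells and was not called (0.11 ± 0.12). MYC was 1.96-fold, NKD2 1.23-fold and ZNRF3 1.27-fold lower, of which NKD2 lost its call without untreated replicate 1 or 3 or doxycycline replicate 1 (limma adjusted p from 0.0525 to 0.0678). SP5, a direct target of beta-catenin, rose by 0.24 on the log2 scale, a call lost without untreated replicate 1 or 2 or doxycycline replicate 1 or 3 (limma adjusted p from 0.0583 to 0.0885). TNFRSF19 and RNF43 were higher than in both untreated cells (2.61-fold and 2.33-fold) and PS medium (2.12-fold and 1.84-fold).

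Sequences bound by TCF/LEF proteins include CTTTGAT and CTTTGTT, so the 250 bases before the transcription start were searched for either form on both strands. Other forms of the sequence were not searched, so bases outside a match may still hold a TCF/LEF site. RefSeq promoters of build GRCh38.p14 were held for 38 of the 66 measured genes in the shared, amnion, streak and Wnt lists, too few for a share of each list. A match was present in 737 of 14239 promoters over all tested genes (5.18%), and in 6 of those 38. By list, a match was in 2 of 7 Wnt response, 2 of 12 streak, 1 of 10 amnion and 1 of 9 shared promoters. Among other lists it was in 4 of 17 neuroectoderm and 2 of 8 endoderm promoters, and in 0 of 11 germ cell and 0 of 10 BMP response promoters. Such numbers are too small to compare lists. The stretches around all 6 matches in the shared, amnion, streak and Wnt lists are shown, without a choice by level. Each is written 5′ to 3′ on the strand of the gene, with the match in capitals. A match describes letters only, and binding was not measured.
DKK1 (chr10:52314165-52314251, plus strand): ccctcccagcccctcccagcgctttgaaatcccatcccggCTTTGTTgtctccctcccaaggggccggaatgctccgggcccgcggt
GDF3 (chr12:7695885-7695971, minus strand): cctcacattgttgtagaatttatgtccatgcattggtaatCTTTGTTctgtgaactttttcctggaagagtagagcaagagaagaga
HAND1 (chr5:154478228-154478313, minus strand): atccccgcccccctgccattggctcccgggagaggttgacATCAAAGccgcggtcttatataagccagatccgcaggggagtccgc
KRT8 (chr12:52926520-52926606, minus strand): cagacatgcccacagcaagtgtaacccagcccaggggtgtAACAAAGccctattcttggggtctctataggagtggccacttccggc
MIXL1 (chr1:226223548-226223634, plus strand): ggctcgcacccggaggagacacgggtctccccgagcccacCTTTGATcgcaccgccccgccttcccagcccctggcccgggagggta
SP5 (chr2:170715188-170715274, plus strand): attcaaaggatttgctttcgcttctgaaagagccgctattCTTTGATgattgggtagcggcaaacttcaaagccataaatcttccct

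Values of these genes are set beside the sequences. MIXL1 and SP5 were lower with doxycycline than in PS medium (log2 -1.61 and -0.59), as were GDF3 (-0.84) and DKK1 (-0.94). The DKK1 call was lost when only the 2 groups compared were fitted (limma adjusted p = 0.0709) and without each of untreated replicate 1, PS replicates 2 and 3 and doxycycline replicates 1 and 3. HAND1 differed by -0.51 and was not called, and KRT8 was 1.26-fold higher, a call lost with median centring (limma adjusted p = 0.0517). The GDF3 call was lost without PS replicate 1 or 2 or doxycycline replicate 1 or 3 (limma adjusted p from 0.0517 to 0.0875).

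Paraxial and presomitic mesoderm genes gave 2 rises and 2 falls among 13 against untreated cells. MESP2, a segmentation factor, read 223, 231 and 298 on the untreated arrays, 1659.7, 2122 and 2363 on the PS arrays and 383, 553 and 523 on the doxycycline arrays. TBX6 rose 1.27-fold, a call lost without untreated replicate 1 or 2 or doxycycline replicate 3 (limma adjusted p from 0.0505 to 0.0605). TCF15, a paraxial mesoderm factor, differed by -0.24, a called fall lost with median centring (0.110) and without untreated replicate 2 (0.0627) or doxycycline replicate 2 (0.0557). LFNG, a Notch glycosyltransferase, was 2.59-fold lower. MSGN1, MEOX1, MEOX2 and HES7, later markers of this tissue, were not called, with differences between -0.051 and 0.11.

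Lateral plate, cardiac and extraembryonic mesoderm genes gave 4 rises and 2 falls among 20, with a median of 0.019. TBX20, a cardiac T-box factor, read 163, 152 and 183 on the untreated arrays, 4837, 6407 and 12671 on the PS arrays and 2428, 2856 and 7608 on the doxycycline arrays. POSTN, periostin of mesenchymal matrix, read 40.8, 50.3 and 37.0 on the untreated arrays, 63.3, 73.5 and 34.5 on the PS arrays and 182, 178 and 785 on the doxycycline arrays. The array with low TCF7L1 was the highest of the doxycycline group for both genes, and without it the log2 rise of POSTN was 1.79 in place of 2.46. PDGFRA, the platelet-derived growth factor receptor of mesoderm, read 51.8, 60.8 and 62.6 on the untreated arrays, 713, 865 and 929.6 on the PS arrays and 175, 245 and 167 on the doxycycline arrays. KDR, the VEGF receptor of lateral and blood-forming mesoderm, was 1.51-fold lower than in untreated cells. HCN4, a cardiac pacemaker channel, was 1.78-fold lower and MYH6, a cardiac myosin, 1.40-fold higher. The MYH6 call was lost without any untreated array or doxycycline replicate 2 (limma adjusted p from 0.0564 to 0.0946). The heart and limb factors TBX5, NKX2-5, HAND2, GATA5 and MEF2C were not called, with differences between -0.042 and 0.12.

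Definitive endoderm genes gave 3 rises and 0 falls (0 unadjusted) among 14. With the replicate block there were 5 rises, with APOA2 and CXCR4 added, and without PS replicate 3 or with only the 2 groups compared also 5, with FOXA2 and CXCR4 added. The rises with all arrays and no block were in factors that heart mesoderm or extraembryonic tissue also use. GATA6 read 2.42, 3.85 and 9.32 on the untreated arrays, 4984, 5256 and 6291 on the PS arrays and 1537, 2284 and 1848 on the doxycycline arrays. GATA4 read 2069, 4596 and 4197 and SOX17 830.4, 989.8 and 1188 with doxycycline, against 66.2, 69.7 and 67.7 and 229, 237 and 257 in untreated cells. HHEX, a homeobox factor of anterior endoderm, read 764, 793 and 809 with doxycycline against 721, 721 and 759.7 in untreated cells and 931, 5045 and 5448 in PS medium. Of the PS arrays, the first thus lay close to the doxycycline arrays. FOXA2, the forkhead factor of endoderm, differed by 0.58 ± 0.38 from untreated cells and CXCR4, a surface marker of endoderm, by 0.98 ± 0.35. Neither passed (limma adjusted p = 0.289 and 0.0554), although both did when only the 2 groups compared were fitted (limma adjusted p = 0.0237 and 0.0239). CXCR4 also passed with the replicate block (0.00194) and both did without PS replicate 3 (0.0347 for FOXA2 and 0.0308 for CXCR4). APOA2, a liver apolipoprotein, differed by 0.38 ± 0.15 and passed only with the replicate block among the alternatives run (limma adjusted p = 0.00615 in place of 0.0897). The liver genes AFP, TTR and FGB were not called in any of these fits against untreated cells.

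Pluripotency genes were lower than in untreated cells in 21 of 30 cases and higher in 1, GAL (1.59-fold), with a median of -0.59. Against PS medium 5 were higher and 8 lower. The largest falls were in VSNL1, a calcium sensor (9.14-fold lower), USP44, a deubiquitinase (5.26-fold), POLR3G, an RNA polymerase III subunit (4.38-fold), FOXD3 (3.54-fold) and SFRP2, a secreted Wnt modulator (3.29-fold). DNMT3B, the de novo DNA methyltransferase, fell 1.48-fold, DPPA4 1.34-fold and L1TD1 2.17-fold. ZIC2 read 4533, 4527 and 4919 on the untreated arrays, 4399, 4309.9 and 4028 on the PS arrays and 1887, 1754 and 1247 on the doxycycline arrays, so that the doxycycline arrays lay below the other 6 by more than 2-fold. OTX2, an anterior epiblast factor, read 2328, 2728 and 2782 on the untreated arrays, 5116, 5295 and 6478 on the PS arrays and 1697, 2057 and 1904 on the doxycycline arrays. VRTN read 1269, 1321 and 1374 on the untreated arrays, 1674, 1776 and 2286 on the PS arrays and 885, 1122 and 846 on the doxycycline arrays, and for both genes the doxycycline arrays were the lowest and the PS arrays the highest.

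The other 8 pluripotency genes were not called against untreated cells. SOX2, a core pluripotency factor that is also used in neural and other ectoderm, read 3898, 4364 and 4561 on the untreated arrays, 867, 974 and 579 on the PS arrays and 3499, 3499.6 and 3711 on the doxycycline arrays. The doxycycline arrays were all below the untreated ones and all above those in PS medium. The difference from untreated cells was -0.25 ± 0.16 (95% interval -0.60 to 0.092, limma adjusted p = 0.263), which was called when only the 2 groups compared were fitted (0.0181) and without PS replicate 3 (0.0195). PRDM14, a repressor that guards pluripotency, read 978, 1267 and 1095 on the untreated arrays, 533, 617 and 462 on the PS arrays and 1006, 974 and 1546 on the doxycycline arrays, and the doxycycline and untreated groups overlapped. LIN28A and LIN28B, RNA-binding proteins that block let-7 maturation, differed by -0.13 ± 0.050 and 0.043 ± 0.070. SALL4, ZFP42 and PODXL differed by -0.15 (95% interval -0.33 to 0.028), -0.14 (-0.30 to 0.028) and -0.10 (-0.27 to 0.062). DNMT3L, a cofactor of DNA methylation, differed by 0.57 ± 0.20 (limma adjusted p = 0.0578), and passed with the replicate block (0.00643), with only the 2 groups compared (0.0136), with a log offset of 1 (0.0487) and without PS replicate 1 or 3 or doxycycline replicate 1 (0.0204 to 0.0266). LIN28A passed with the replicate block (limma adjusted p = 0.0248), without doxycycline replicate 2 (0.0438) and as the mean of its probe sets (-0.22, limma adjusted p = 0.00682).

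**Figure D4:**
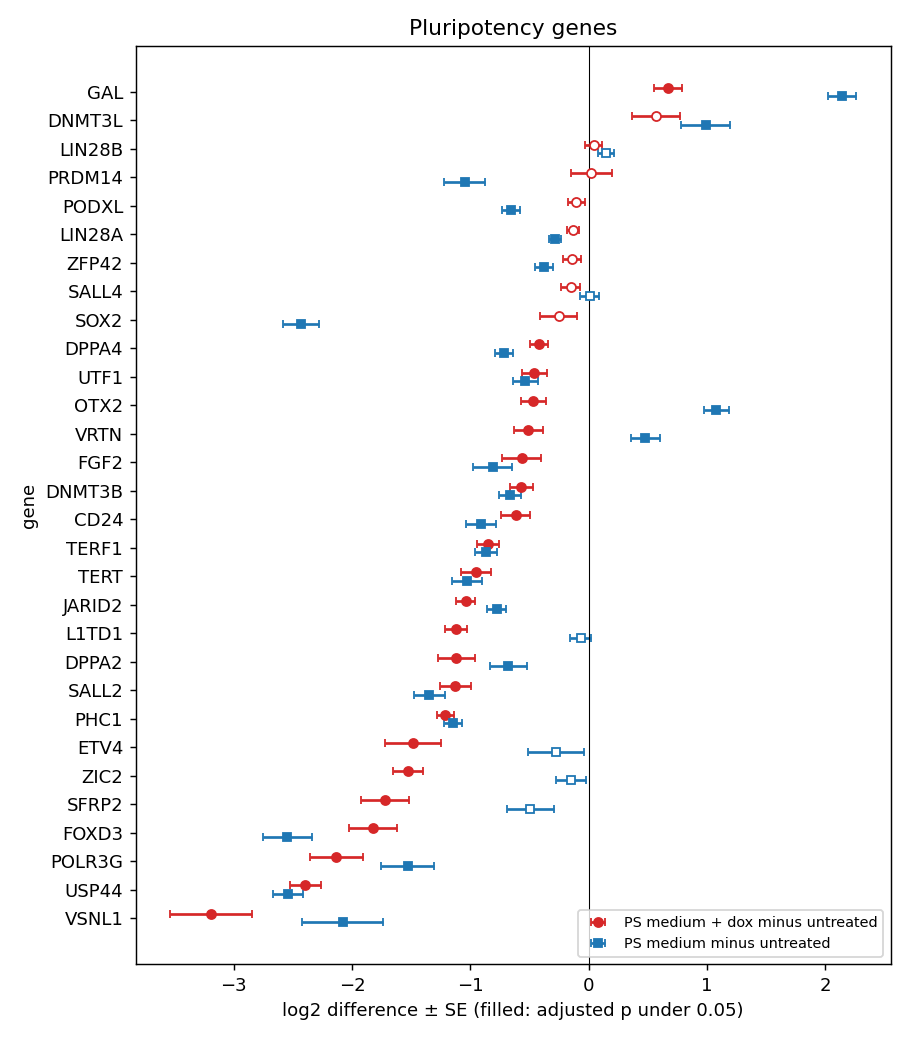
Log2 differences with SE (n = 3 arrays per group) from untreated cells for 30 pluripotency genes, red circles for PS medium with doxycycline and blue squares for PS medium; filled symbols are called. Both sets of values share the untreated arrays. SOX2 lay at -0.25 with doxycycline, and VSNL1 at the other end at -3.19.

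Naive pluripotency genes gave 2 rises among 10, KLF4 and TFCP2L1, and 1 fall, DPPA3. KLF4, a zinc finger factor of naive cells and of epithelia, read 104, 87.9 and 108 on the untreated arrays, 97.1, 105 and 115 on the PS arrays and 227, 368 and 635 on the doxycycline arrays. TFCP2L1, a grainyhead-like factor, rose 1.88-fold. KLF17, DPPA5 and ESRRB, which distinguish the naive state, were not called. The fall of DPPA3 was lost without untreated replicate 1 or 2 or doxycycline replicate 1 (limma adjusted p from 0.0591 to 0.0726).

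Neuroectoderm genes were higher in 4 of 21 cases and lower in 5. LIX1 read 13.8, 13.7 and 16.3 on the untreated arrays, 1193, 1779 and 990.0 on the PS arrays and 218, 536 and 203 on the doxycycline arrays. PAX6, the paired-box factor of neural plate and eye, read 11.4, 16.1 and 22.2 on the untreated arrays, 17.9, 39.7 and 129 on the PS arrays and 269, 228 and 69.2 on the doxycycline arrays, and was lowest in its group on the array with low TCF7L1. FEZF1, POU3F1 and ZIC5, factors of anterior neural plate that untreated stem cells also transcribed, were 6.14-fold, 6.02-fold and 3.53-fold lower than in untreated cells. NES and NR2F1 were 1.39-fold and 1.25-fold higher, and both calls were lost without untreated replicate 1 or 3 or doxycycline replicate 1. NES was also lost without doxycycline replicate 2 (limma adjusted p from 0.0709 to 0.118 over these 4), and NR2F1 without untreated replicate 2 (0.0578 to 0.0968). The count of higher genes was 2 without untreated replicate 1 or doxycycline replicate 1. SOX1, SIX3, RAX and HES5 were not called, with differences between -0.26 and 0.047.

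Epithelial junction genes were close to untreated levels with doxycycline and above PS medium. Against untreated cells 6 of 18 were higher and 3 lower, with a median of 0.15, and against PS medium 17 were higher and 0 lower (0 unadjusted), with a median of 0.70. CDH1, E-cadherin, read 3733, 3864 and 3798 on the untreated arrays, 3228, 2809.7 and 2543 on the PS arrays and 4124, 3618 and 4962 on the doxycycline arrays. RAB25, an epithelial trafficking GTPase, rose 1.97-fold against untreated cells, CLDN10 1.82-fold and CGN, cingulin, 1.47-fold. EPCAM read 2912, 3260.4 and 3281 on the untreated arrays, 2086, 2127 and 2179.9 on the PS arrays and 3629, 3589.5 and 4474 on the doxycycline arrays. Its call against untreated cells was lost without untreated replicate 1 (limma adjusted p = 0.0765) and as the mean of its probe sets (0.0611). ST14, CLDN4 and MARVELD3 differed from untreated cells by -0.40, -0.40 and -0.33 on the log2 scale, each a called fall. For each of these genes, leaving out any 1 of at least 4 arrays ended the call, with limma adjusted p up to 0.105, and ST14 and MARVELD3 were not called with median centring (0.0849 and 0.0882). Without untreated replicate 1 the count of higher genes against untreated cells was 3.

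Mesenchymal genes were higher than in untreated cells in 15 of 20 cases and lower in 2, with a median of 0.54. Against PS medium 9 were lower and 2 higher, with a median of -0.15. FN1, fibronectin, read 1430.1, 1575 and 1448 on the untreated arrays, 5493, 4672 and 5625 on the PS arrays and 12504, 10928 and 12965 on the doxycycline arrays. ZEB2 read 43.5, 33.9 and 59.7 on the untreated arrays, 921, 1156 and 1183 on the PS arrays and 283, 453 and 316 on the doxycycline arrays, and SNAI2 274, 251 and 271 on the untreated arrays, 1511, 1879 and 2745 on the PS arrays and 459.7, 859.7 and 1344 on the doxycycline arrays. Both repress epithelial genes, and for both the doxycycline arrays lay between the other groups. The log2 rise of ZEB2 was 1.24 as the mean of its probe sets, in place of 2.58. SNAI1, the repressor that acts first in the streak, read 399.6, 477 and 379 with doxycycline against 334, 346 and 349 in untreated cells and 1659, 1614 and 1746 in PS medium. Its difference from untreated cells (0.27 ± 0.088, limma adjusted p = 0.0414) lost its call in 9 of 19 alternatives. These were median centring, only the 2 groups compared, and leaving out any 1 untreated array, PS replicate 1 or 2, or doxycycline replicate 1 or 2 (limma adjusted p from 0.0511 to 0.136). TGFB2, a ligand that promotes loss of epithelial character, read 127, 116 and 131 on the untreated arrays, 84.4, 74.9 and 57.5 on the PS arrays and 315, 308 and 439.8 on the doxycycline arrays, so that the doxycycline arrays were above untreated cells and the PS arrays below them. CDH2, N-cadherin, rose 1.66-fold against untreated cells and was 1.62-fold lower than in PS medium. COL3A1, PRRX1 and TWIST1, of established mesenchyme, were not called.

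**Figure D5:**
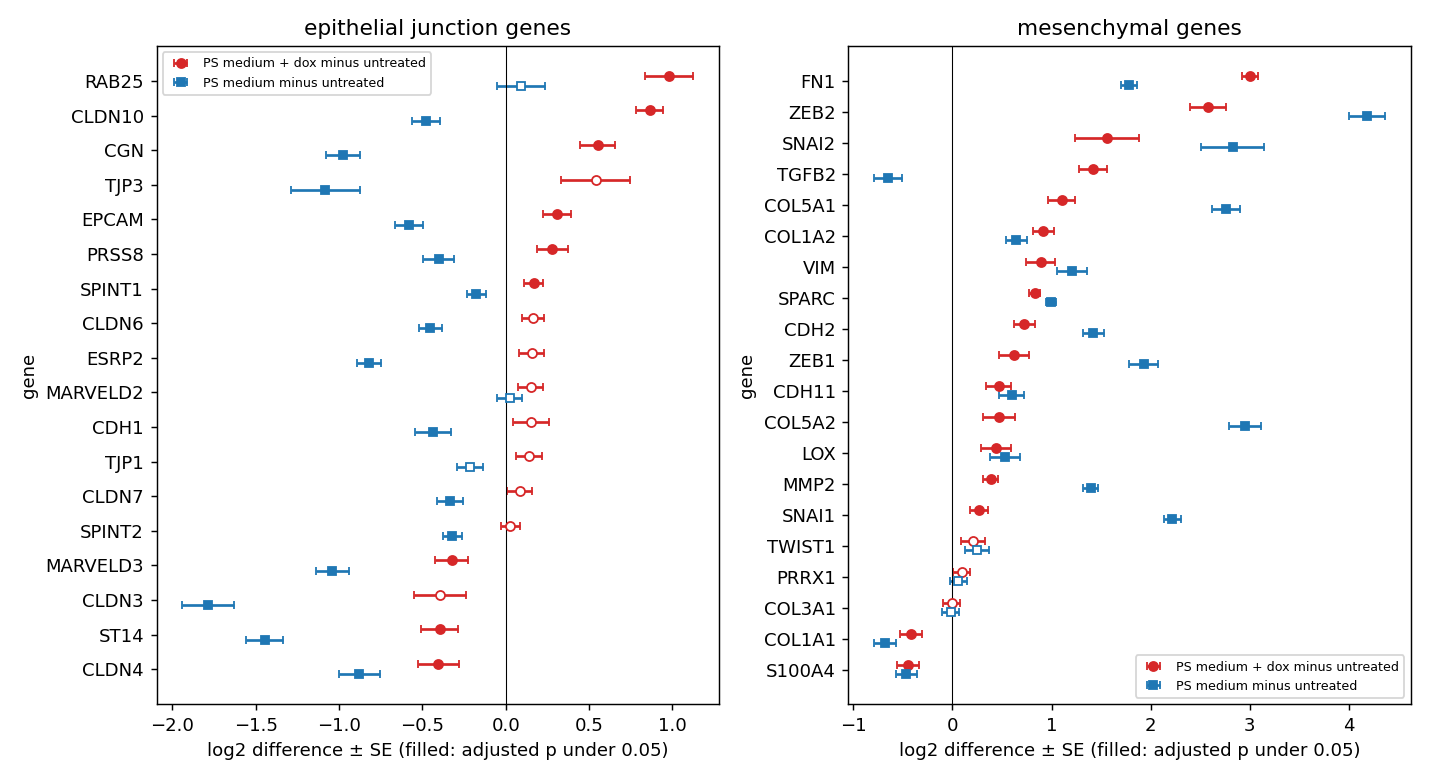
Log2 differences with SE (n = 3 arrays per group) from untreated cells for epithelial junction genes (left) and mesenchymal genes (right), red circles for PS medium with doxycycline and blue squares for PS medium; filled symbols are called. Both sets of values share the untreated arrays. CDH1 lay at 0.15 with doxycycline and -0.44 in PS medium, and SNAI1 at 0.27 and 2.22.

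The doxycycline arrays differed among themselves, and where the array with low TCF7L1 lay beside PS medium varied between lists. Its shared amnion and surface ectoderm level (2.22) and its amnion level (2.50) were the highest of the 3, each as a mean log2 difference from untreated cells. Its primitive streak level (1.76) was the lowest of the 3 and the farthest from PS medium. Its lateral mesoderm level (0.516, against 0.282 and 0.394) was the closest of the 3 to PS medium (0.501, 0.525 and 0.502). So was its trophoblast level (0.376, against 0.202 and 0.295), with PS medium at 0.351, 0.351 and 0.374. DLX5, DLX3, GRHL3 and PAX6 were lowest on that array within the doxycycline group, and ISL1, VTCN1, POSTN, KRT7, VGLL1 and KLF4 were highest. These genes and lists were picked after their values were seen. Whether the level of the transgene had a part in them was not tested.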

How the data were processed

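The authors deposited linear probe set intensity values for 9 Affymetrix arrays of human cells, made with Expression Console 1.1.1 and PLIER 2.0, per the submitters' processing notes. How background was corrected and values normalized is not given in the sources used here. Of 33297 probe sets, 19460 had 1 gene symbol, 1754 several and 12083 none in the platform annotation. Symbols were updated through the gene number for 19429 probe sets, and 31 kept the annotation's symbol. Probe sets with several symbols were left out. Each gene was read from its brightest probe set on average, which gave 18417 genes, 769 of them with a choice. From the deposited intensity values, quantile-normalized log2(intensity + 16) was computed and fitted with limma 3.58.1 in R 4.3.3 (lmFit and eBayes with trend, 1 mean per group over all 9 arrays, 6 residual degrees of freedom), with Benjamini-Hochberg adjustment over all genes. The tool was tested on simulated data for the comparison with untreated cells, over 18417 genes: 94% of 100 genes changed 2-fold and 100% of 100 changed 4-fold were recovered, with 5 false calls. Simulated noise was independent between genes and arrays, and far fewer genes changed than were called here. These rates thus need not hold for the arrays described.

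The genes named are TCF7L1, SOX2, ISL1, HAND1, TFAP2A, GATA3, DLX5, TBXT, MIXL1, EOMES, SOX17, PAX6 and TP63, the 8 largest called rises and falls with arrays that did not overlap, up to 5 called members of each list with the largest change, and every measured amnion and surface ectoderm gene. Other list members named with values were chosen after their values were seen. Members and lists were chosen with earlier results of these data known. TP63 and the members on probe sets with several symbols or none are not analysed here. Separate cultures are not named in the labels, and p-values thus measure only the spread between these arrays, which may be technical. The number of arrays limits the precision.

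Same-numbered arrays deviated together from their group means (r = 0.246, 0.309 and 0.297 between doxycycline and untreated arrays, and 0.245, 0.428 and 0.246 between doxycycline and PS arrays). Correlations between arrays with different numbers were not computed. Deviations from a group mean cancel out within the group, so such values would not be a separate check. The main fit did not pair arrays, and a fit with the replicate number as a block was run as an alternative. Pairing by number comes from the data, not from the labels. Alternatives were the values as deposited, median centring, other log offsets, a filter on dim genes, other uses of multiple probe sets, no trend, a fit of 2 groups, the replicate block and leaving out each array.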

Additional observations from a re-analysis of the deposited data

How the results depend on the processing

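The counts of genes higher and lower than in untreated cells kept within 1.5 times their size in all alternatives that were run, from 2002 to 3571 higher and from 2164 to 3485 lower. With the replicate number as a block, 3571 were higher and 3485 lower. Against untreated cells the block moved 5 list counts by over 1.5 times, to 5 endoderm, 2 neural border and 2 pluripotency genes higher and 2 neural border and 2 endothelial genes lower. Against PS medium it gave 6 surface ectoderm, 2 endoderm and 2 germ cell genes higher and 4 endothelial genes lower. Median centring put 56.2% of the calls on the higher side, against 50.7%. Leaving out 1 array in turn, genes higher than in untreated cells ran from 2 to 4 for neuroectoderm, 3 to 8 epithelial, 3 to 5 endoderm, 1 to 2 neural border, 1 to 2 paraxial, 1 to 2 germ cell and 1 to 2 pluripotency genes. Genes lower than in untreated cells ran from 0 to 4 for epithelial, 1 to 2 trophoblast, 1 to 2 paraxial, 1 to 2 mesenchymal, 0 to 1 neural border, 0 to 1 naive and 0 to 1 shared amnion and ectoderm genes. Against PS medium the same gave 2 to 3 neural border, 3 to 5 pluripotency, 3 to 6 BMP response, 3 to 5 surface ectoderm, 1 to 2 trophoblast, 0 to 2 endoderm, 1 to 2 germ cell, 0 to 1 paraxial and 0 to 1 streak genes higher. It gave 11 to 16 streak, 2 to 4 germ cell, 2 to 5 Wnt response, 1 to 2 endothelial, 0 to 1 naive, 0 to 1 amnion and 0 to 1 neural border genes lower. With only the 2 groups compared there were 5 endoderm and 2 pluripotency genes higher than in untreated cells, and 2 neural border, 3 pluripotency, 1 trophoblast and 0 endoderm genes higher and 0 naive genes lower than in PS medium. With median centring 2 neural border genes were higher and 2 endothelial genes lower than in PS medium, and 1 paraxial, 1 epithelial and 0 neural border genes lower than in untreated cells. Without a trend in eBayes 2 neural border genes were higher than in untreated cells and 2 endothelial genes lower than in PS medium, as were 2 endothelial genes with values as deposited. A log offset of 1 gave 2 pluripotency genes higher than in untreated cells, and an offset of 64 gave 1 trophoblast gene higher than in PS medium. Without the dimmest genes 0 trophoblast genes were lower than in untreated cells and 1 neuroectoderm gene was higher than in PS medium, where fewer genes were tested. The cause of the other shifts was not tested, beyond fewer arrays in the fit. For 337 genes of the lists or named, 12248 single values kept their call, or its absence, under the alternatives of both comparisons. A further 315 lost the call, 135 gained it and none that passed in either fit changed sign. Direction was not counted for values that passed in neither fit, and some of these changed sign. Genes dim in untreated cells have folds set by the log offset.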

Other observations

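Feedback genes of FGF and ERK signalling, which belong to none of the lists and were collected after values had been seen, were lower than in untreated cells in 7 of 10 cases and higher in 1, with a median of -0.82. Against PS medium 7 were lower and 0 higher. DUSP6, the phosphatase that acts on ERK, read 3582, 3505 and 2427 on the untreated arrays, 656, 904 and 421 on the PS arrays and 238, 281 and 145 on the doxycycline arrays, with no overlap between groups. SPRY4, a Sprouty inhibitor of receptor signalling, read 4098, 3896 and 3084 on the untreated arrays, 3545, 3726 and 3919.7 on the PS arrays and 1308, 1627 and 892 on the doxycycline arrays. Its untreated and PS arrays overlapped and its doxycycline arrays lay below both. The ETS factors ETV5 and ETV1 were 2.63-fold and 2.42-fold lower than in untreated cells (limma adjusted p = 3.40e-05 and 8.31e-06). SPRY2 was the member that rose, 1.46-fold.

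Genes of no list were taken for their largest rises with doxycycline against untreated cells, with arrays that did not overlap. Among these, CYP24A1 and SEMA3C were not called in PS medium alone against untreated cells. HPGD, IGFBP7, WLS, ANKRD1, CD48 and EBF2 rose in PS medium alone as well. CYP24A1, the hydroxylase that inactivates vitamin D, read 14.3, 30.7 and 27.3 on the untreated arrays, 31.1, 40.9 and 31.4 on the PS arrays and 3564, 3667 and 1169.7 on the doxycycline arrays, and was lowest in its group on the array with low TCF7L1. SEMA3C, a secreted semaphorin, read 162, 135 and 151 on the untreated arrays, 145, 153 and 112 on the PS arrays and 4247, 4972 and 5428 on the doxycycline arrays, a rise of 32.1-fold against PS medium (limma adjusted p = 7.03e-09). HPGD read 49.4, 69.6 and 94.9 on the untreated arrays, 496, 481 and 782 on the PS arrays and 7448, 7432 and 8599 on the doxycycline arrays, and IGFBP7, a secreted insulin-like growth factor binding protein, 122, 131 and 138 on the untreated arrays, 372, 482 and 429.5 on the PS arrays and 2504, 2888 and 4424 on the doxycycline arrays. WLS, which carries Wnt ligands to the cell surface, read 85.7, 88.0 and 112 on the untreated arrays, 1721, 1978 and 1920.3 on the PS arrays and 4130.4, 4227 and 4086 on the doxycycline arrays, so that the 3 groups did not overlap. ANKRD1, a target of YAP and TEAD, read 4.93, 24.9 and 20.2 on the untreated arrays, 593, 788 and 570.2 on the PS arrays and 1489, 2674 and 964 on the doxycycline arrays. CD48, a surface protein best known from blood cells, read 10.5, 11.1 and 16.5 on the untreated arrays, 1243, 953 and 1955 on the PS arrays and 782, 773 and 820.1 on the doxycycline arrays, so that each doxycycline array was below each PS array.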
